A study of Mus musculus with 4 samples.

Results

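Imprinted genes are transcribed mainly or wholly from the chromosome inherited from 1 parent, and 39 known mouse imprinted genes were examined in primary neural stem/progenitor cells (NSCs). The members were fixed by gene name, 16 of them expressed from the maternal and 23 from the paternal chromosome by general knowledge of the mouse. Of these, 35 names were found, 13 maternally and 22 paternally expressed, in 37 of the 18169 rows of the deposited expression table. Gnas and Nnat had 2 rows each, and Phlda2, Kcnq1, Mirg and Magel2 were not analysed here. The values count RNA from both alleles together, so which parental copy was transcribed was not measured. For 6 of the maternally expressed genes (Gnas, Ube3a, Copg2, Igf2r, Trappc9 and Grb10) imprinting was listed as dependent on the tissue. The list is from general knowledge and may leave out other members of either class. Whether any member is imprinted in NSCs is thus unknown here, and both classes are by list only.

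RNA was from NSCs of 2 wild-type (+/+) and 2 Chd5-/- C57BL/6 mice, with 1 culture from the periventricular region of each newborn brain, grown with epidermal growth factor and fibroblast growth factor 2. Chd5 encodes a chromatin remodeler, and the comparison asks what its loss does to transcription in undifferentiated NSCs. The protocol in the sample labels gives postnatal day 1 for all cultures, but the separate age entries read 1 and 2 days for +/+ and 3 and 4 days for Chd5-/-, so that by those entries age and genotype cannot be told apart. Levels are in TPM, transcripts as parts of a fixed library total and corrected for gene length, and the number of reads behind a value is unknown. Chd5 itself was at 0.39 and 0.37 TPM in +/+ NSCs, against 0.06 and 0.04 TPM in Chd5-/- NSCs.

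Imprints are set in the germ line as DNA methylation at control regions rich in CpG dinucleotides. Most imprinted genes sit in clusters in which a long noncoding RNA or an insulator links the silence of some genes on a chromosome to the activity of others on it. Many restrain or promote growth: Igf2, Dlk1 and Mest are examples from the paternal side, and H19, Cdkn1c, Grb10 and Igf2r from the maternal side. Dlk1, Igf2 and Cdkn1c are also known as regulators of neural stem cell maintenance or quiescence.

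Promoters of 30 of the 39 names were found in RefSeq (GRCm38.p6), as 47 windows of 300 bases around annotated start sites. The median window of these genes held 12 CpG, against 7 in all 32851 windows, and 61.7% of them held at least 10, against 43.5% of all. The median was 20 CpG in the 19 windows of maternally expressed genes and 10 in the 28 windows of paternally expressed genes. The hexamer TGCCGC, the core motif of the imprint-protecting zinc finger protein Zfp57, was present on either strand in 23.4% of the members' windows and in 11.6% of all windows. The Mest windows that start at 30737800 and 30737803 are nearly the same sequence and were both counted. The Gnas windows that start at 174327499 and 174327518 also overlap, as do those of Peg3 and Usp29 on opposite strands. Some genes had several windows, so these medians and shares are of windows and not of genes. The hexamer itself holds a CpG, and whether its share goes beyond the higher CpG content of these windows was not tested. The promoters below are those of the genes with the smallest p-values between genotypes for which a window was found, and of Peg3, which is read divergently from Usp29. Each runs 5′ to 3′ on the strand of the gene, with CpG in capitals. They lie at chr9:89909525-89909824 (Rasgrf1, plus strand, 26 CpG), chr11:22971755-22972054 (Zrsr1, plus strand, 10 CpG), chr7:59228500-59228799 (Ube3a, plus strand, 29 CpG), chr7:62464461-62464760 (Peg12, minus strand, 12 CpG) and chr7:6730370-6730669 (Peg3, minus strand, 13 CpG).
Rasgrf1: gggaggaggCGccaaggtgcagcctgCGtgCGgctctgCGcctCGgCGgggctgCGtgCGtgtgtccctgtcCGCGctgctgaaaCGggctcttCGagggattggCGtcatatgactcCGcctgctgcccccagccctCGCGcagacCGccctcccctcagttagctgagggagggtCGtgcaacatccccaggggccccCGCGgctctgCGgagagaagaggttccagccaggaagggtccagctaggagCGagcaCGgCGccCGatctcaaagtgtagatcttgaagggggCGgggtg
Zrsr1: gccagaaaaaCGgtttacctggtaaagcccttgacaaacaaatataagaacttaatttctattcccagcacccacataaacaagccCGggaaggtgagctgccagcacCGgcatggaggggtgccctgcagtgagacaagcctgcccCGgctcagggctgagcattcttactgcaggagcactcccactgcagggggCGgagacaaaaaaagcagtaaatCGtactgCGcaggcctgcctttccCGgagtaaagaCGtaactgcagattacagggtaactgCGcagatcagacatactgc
Ube3a: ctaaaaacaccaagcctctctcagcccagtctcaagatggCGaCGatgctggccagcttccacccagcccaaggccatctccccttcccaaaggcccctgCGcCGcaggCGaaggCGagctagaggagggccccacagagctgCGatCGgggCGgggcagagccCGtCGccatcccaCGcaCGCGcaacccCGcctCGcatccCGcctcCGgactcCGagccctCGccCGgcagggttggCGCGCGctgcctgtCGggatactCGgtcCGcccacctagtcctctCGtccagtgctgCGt
Peg12: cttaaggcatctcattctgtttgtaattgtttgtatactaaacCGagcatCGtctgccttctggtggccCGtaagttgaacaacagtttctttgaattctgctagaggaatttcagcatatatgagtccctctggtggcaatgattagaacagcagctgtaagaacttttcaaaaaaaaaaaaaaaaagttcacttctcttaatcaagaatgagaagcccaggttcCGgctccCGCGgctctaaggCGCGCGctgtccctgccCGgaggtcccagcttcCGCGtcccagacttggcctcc
Peg3: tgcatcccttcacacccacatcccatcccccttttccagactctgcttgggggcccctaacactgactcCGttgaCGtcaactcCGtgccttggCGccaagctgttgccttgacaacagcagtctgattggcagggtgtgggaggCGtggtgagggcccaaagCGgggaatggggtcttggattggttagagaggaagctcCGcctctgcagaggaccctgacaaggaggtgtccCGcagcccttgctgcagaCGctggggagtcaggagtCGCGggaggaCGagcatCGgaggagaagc
None of these 5 windows held TGCCGC on either strand.

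In +/+ NSCs the maternally expressed genes ranged from Gnas, which encodes the stimulatory G protein alpha subunit, at 793 ± 8.85 TPM (SD, n = 2), to Grb10 and Meg3, at 0.100 ± 0.0566 and 0.110 ± 0.0849 TPM. Gnas was at rank 110 of all rows by mean +/+ TPM. Ube3a, a ubiquitin ligase, followed at 136 ± 20.5 TPM, and Copg2, a coat protein of Golgi vesicles, at 65.0 ± 3.34 TPM. The highest paternally expressed gene was Mest, a hydrolase-like protein of growing tissues, at 231 ± 58.3 TPM, ahead of Nap1l5 at 97.9 ± 28.3 TPM and Impact, an inhibitor of the amino acid sensor kinase Gcn2, at 68.5 ± 4.44 TPM. Sgce (56.5 ± 1.46 TPM) and Peg10 (45.2 ± 13.4 TPM) came next, and Nap1l5, Impact, Sgce and Peg10 stood in this order in both +/+ samples.

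**Figure D1:**
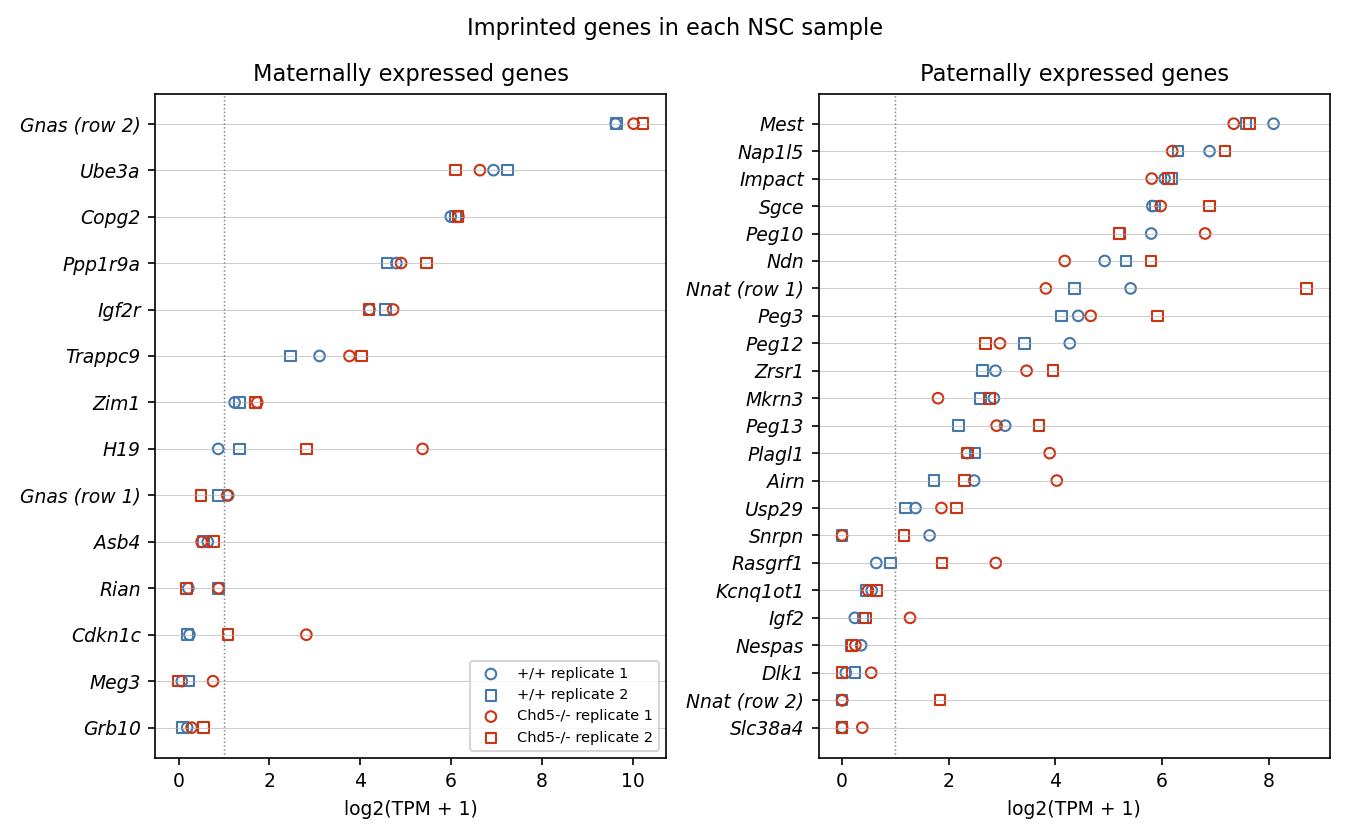
Level of each imprinted gene as log2(TPM + 1) in each NSC sample, with maternally expressed genes on the left and paternally expressed genes on the right, ordered by mean +/+ TPM. Circles are replicate 1 and squares replicate 2, blue is +/+ and red Chd5-/-, and the dotted line marks 1 TPM. The red symbols of Nnat, H19 and Cdkn1c lie far apart from each other.

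Of the 37 rows, 25 averaged 1 TPM or more over the 4 samples and were tested, 9 of them maternally and 16 paternally expressed. The other 12 rows included several of the best known imprinted genes. Igf2, the fetal growth factor, was at 0.18 and 0.31 TPM in +/+ NSCs, against 1.42 and 0.36 TPM in Chd5-/- NSCs. Dlk1, a Notch-like ligand, was at 0.05 and 0.18 against 0.46 and 0 TPM. In the same cluster the noncoding RNA Meg3 was at 0.05 and 0.17 against 0.69 and 0 TPM, and Rian at 0.16 and 0.84 against 0.84 and 0.13 TPM. All 3 genes of this cluster had their lowest value in Chd5-/- replicate 2 and stayed under 1 TPM in every sample.

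Grb10, an adaptor that dampens insulin and IGF receptor signalling, was at 0.14 and 0.06 TPM in +/+ and 0.22 and 0.46 TPM in Chd5-/- NSCs. Kcnq1ot1, the long noncoding RNA of the Kcnq1 domain, was at 0.47 and 0.37 against 0.40 and 0.57 TPM, and Nespas, the antisense RNA of the Gnas domain, at 0.28 and 0.13 against 0.19 and 0.14 TPM. Both overlapped between genotypes. Asb4 stayed between 0.42 and 0.70 TPM in all 4 samples, Slc38a4 was listed at 0 except for 0.30 TPM in Chd5-/- replicate 1, and the second rows of Gnas and Nnat reached at most 1.13 and 2.58 TPM.

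Snrpn, a splicing protein of the Prader-Willi region, was at 2.12 and 0 TPM in +/+ and at 0 and 1.24 TPM in Chd5-/- NSCs. It is read from the same transcript as Snurf, which was at 32.12 and 37.36 against 35.52 and 40.88 TPM, so that single values are uncertain where counting split the reads. The sum of both rows was 34.24 and 37.36 TPM in +/+ NSCs, against 35.52 and 42.12 TPM in Chd5-/- NSCs, a difference of 0.11 in log2(TPM + 1). The sum was formed after the values were seen.

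To ask which of these genes differed, limma was run on log2(TPM + 1) over the 12576 rows that reached the minimum, and all log2 differences below are Chd5-/- minus +/+ on this scale. With Benjamini-Hochberg adjustment over all rows, 0 of the 25 imprinted rows passed an adjusted p-value under 0.05, where 7 of all rows (0.0557%) did. The smallest adjusted p among the imprinted genes was 0.143, for H19 and Rasgrf1. At an unadjusted p-value under 0.05, 5 were higher in Chd5-/- NSCs, against 21.9% of all rows, and 2 were lower, against 2.27% of all rows. In 12 of the 25 the lower Chd5-/- value exceeded the higher +/+ value, against 46.3% of all rows, and in 2 the order was the opposite, against 13.0%. By class, it exceeded it in 7 of 9 maternally and 5 of 16 paternally expressed rows, and the order was the opposite in 1 of each. At an unadjusted p under 0.05, 3 maternally expressed rows were higher and 1 lower, and 2 paternally expressed rows higher and 1 lower. Over both classes together, the share of higher rows was near that of the table as a whole. The split depends on scaling: after median-of-ratios scaling 3 imprinted rows were higher and 3 lower, where all rows went from 2748 higher and 285 lower to 1508 and 1311.

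The median log2 difference was 0.49 for the 9 maternally expressed rows and 0.63 for the 16 paternally expressed rows, and 0.34 for all rows. The medians were 0.13 and 0.29 after median-of-ratios scaling, which by its design brings that of all rows near 0. They were 0.27 and 0.32 once trends with GC content and transcript length were taken out. The order of the classes was not stable either: without Chd5-/- replicate 2 the medians were 0.38 and 0.21, and at a minimum of 10 TPM 0.30 and 0.090. Without the genes listed as tissue-dependent, which left only H19, Cdkn1c, Ppp1r9a and Zim1, the maternal median was 1.11. Whether imprinting of those left also depends on tissue was not examined. Cdkn1c and Rasgrf1, under 1 TPM in both +/+ samples, entered the test only through their Chd5-/- values, so these counts and medians, and the p-values of both genes, are given as a description.

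**Figure D2:**
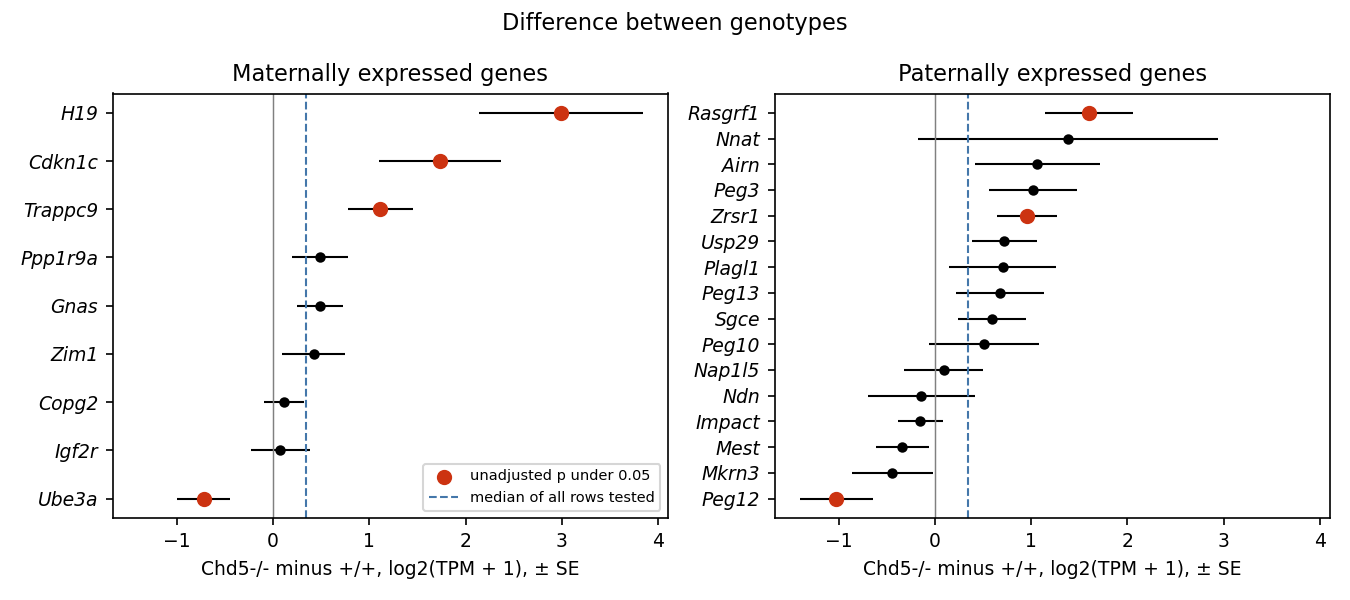
Difference between genotypes in log2(TPM + 1) for the 25 imprinted rows tested, with the limma standard error as bars (2 samples per genotype). Red points had an unadjusted p-value under 0.05 and the dashed line is the median of all rows, 0.34. H19 sits furthest to the right, at 2.99, and Peg12 furthest to the left, at -1.02.

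Among maternally expressed genes, H19 (chromosome 7 of GRCm38, 142575529 to 142578143, minus strand) had the largest log2 difference. This noncoding RNA is the maternal counterpart of Igf2 and the precursor of a growth-restraining microRNA. It was at 0.83 and 1.54 TPM in +/+ NSCs, against 40.38 and 6.07 TPM in Chd5-/- NSCs. Both Chd5-/- values lay above the +/+ values, and Chd5-/- replicate 1 was far above replicate 2. H19 thus had a log2 difference of 2.99 (SE 0.85, unadjusted p = 0.0159 and adjusted p = 0.143 with limma). Leaving out Chd5-/- replicate 1 or 2 gave 1.71 (adjusted p = 0.0469) or 4.26 (adjusted p = 0.0084), past the threshold, but in such fits the lone sample is assumed to vary like the +/+ samples, and 9.92% and 8.64% of all rows passed. Without +/+ replicate 1 or 2 the adjusted p was 0.415 or 0.759.

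Cdkn1c (chromosome 7, 143458339 to 143461050, minus strand), the cyclin-dependent kinase inhibitor p57, was at 0.18 and 0.15 TPM in +/+ and at 6.02 and 1.13 TPM in Chd5-/- NSCs. The genotypes did not overlap, and again replicate 1 was the higher of the Chd5-/- samples. Its log2 difference was 1.73 (SE 0.63, adjusted p = 0.187), 2.59 without Chd5-/- replicate 2, 0.87 without Chd5-/- replicate 1 and 0.70 with the GC and length trends removed. Since Cdkn1c met the minimum only through its Chd5-/- values, its p-value is a description.

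Trappc9 (chromosome 15, 72589620 to 73061204, minus strand), a subunit of a vesicle tethering complex, was at 7.59 and 4.50 TPM in +/+ and at 12.56 and 15.33 TPM in Chd5-/- NSCs. Here the Chd5-/- samples lay close together and above both +/+ samples. The log2 difference was 1.11 (SE 0.34, adjusted p = 0.153), and 0.37 with the GC and length trends removed. Peg13 lies within Trappc9 on the same strand over its whole 4725 bases, so that reads from unspliced Trappc9 RNA can be counted for it.

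Ube3a (chromosome 7, 59228750 to 59311536, plus strand), whose imprinting is known from neurons, was the only maternally expressed gene tested that was lower in Chd5-/- NSCs. Its CpG-rich promoter is among those printed above. It was at 121 and 150 TPM in +/+ NSCs, against 98.27 and 67.40 TPM in Chd5-/- NSCs, without overlap. Its log2 difference was -0.72 (SE 0.28, unadjusted p = 0.0469, adjusted p = 0.201), and it stayed below 0 under every alternative run, from -1.09 to -0.45. Its adjusted p was 0.0487 without Chd5-/- replicate 1, and 0.214, 0.449 and 0.814 when Chd5-/- replicate 2, +/+ replicate 1 or +/+ replicate 2 was left out.

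Of the other maternally expressed rows, Gnas was at 787 and 799 against 1035 and 1196 TPM, a log2 difference of 0.49 (SE 0.24, adjusted p = 0.283) that became -0.42 with the GC and length trends removed. Ppp1r9a, the actin-binding protein neurabin, was at 26.74 and 23.01 against 28.83 and 42.96 TPM (log2 difference 0.49), with 0.77 and 0.21 without Chd5-/- replicates 1 and 2 and 0.13 after median-of-ratios scaling. Zim1, a zinc finger protein, was at 1.35 and 1.53 against 2.32 and 2.22 TPM (log2 difference 0.42), or -0.20 after quantile normalization. The genotypes did not overlap in any of these. Copg2 was nearly level, at 62.61 and 67.33 against 70.45 and 70.10 TPM (log2 difference 0.11), and Igf2r, which takes Igf2 up for degradation, overlapped at 17.41 and 22.58 against 25.41 and 17.30 TPM (log2 difference 0.077). Copg2 and Igf2r turned negative under other scalings.

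Among paternally expressed genes, Rasgrf1 (chromosome 9, 89909908 to 90026977, plus strand), an exchange factor that activates Ras, had the largest log2 difference. It was at 0.56 and 0.88 TPM in +/+ and at 6.38 and 2.67 TPM in Chd5-/- NSCs. Every Chd5-/- value lay above the +/+ values, with replicate 1 the higher. The difference on the log2 scale was 1.60 (SE 0.46, unadjusted p = 0.0158, adjusted p = 0.143), 1.10 without Chd5-/- replicate 1 and 2.11 without replicate 2. Since Rasgrf1 met the minimum only through its Chd5-/- values, its p-values are a description.

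Zrsr1 (chromosome 11, 22972005 to 22976496, plus strand), a retrogene related to a splicing factor, was at 6.35 and 5.21 TPM in +/+ and at 10.01 and 14.56 TPM in Chd5-/- NSCs, without overlap. The log2 difference was 0.95 (SE 0.31, adjusted p = 0.167), and 0.36 after quantile normalization. Its host gene Commd1 was at 83.62 and 67.60 against 115 and 88.60 TPM, with a log2 difference of 0.42 (adjusted p = 0.355).

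Peg12 (chromosome 7, 62461871 to 62464510, minus strand), related to the Gsk3-binding Frat proteins, had the lowest log2 difference of the paternally expressed genes. Mkrn3, Mest, Impact and Ndn also had log2 differences below 0, but overlapped between genotypes. Peg12 did not. It was at 18.32 and 9.73 TPM in +/+ NSCs, against 6.79 and 5.45 TPM in Chd5-/- NSCs, with +/+ replicate 1 well above replicate 2. The log2 difference was -1.02 (SE 0.38, unadjusted p = 0.0409, adjusted p = 0.190), -0.60 without +/+ replicate 1 and -1.45 without +/+ replicate 2.

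Peg12 shares its cluster with Mkrn3, Ndn, Snrpn and Ube3a. Mkrn3, a ring finger protein, was at 6.20 and 5.07 against 2.48 and 5.79 TPM (log2 difference -0.44, adjusted p = 0.545). Ndn, a MAGE family protein that restrains proliferation, was at 29.41 and 39.14 against 17.09 and 54.54 TPM (log2 difference -0.14). In both, Chd5-/- replicate 1 was the lowest sample, and without it the log2 differences became 0.039 and 0.67.

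In the Peg3 cluster, Peg3 (chromosome 7, 6703892 to 6730431, minus strand), a zinc finger protein of stem and progenitor cells, was at 20.56 and 16.39 TPM in +/+ and at 24.36 and 59.40 TPM in Chd5-/- NSCs. The start of Usp29, a deubiquitinase, lies 146 bases away on the other strand, and Usp29 was at 1.60 and 1.28 against 2.64 and 3.43 TPM. Both genes were higher in both Chd5-/- samples, with log2 differences of 1.02 (SE 0.46, adjusted p = 0.248) and 0.72 (SE 0.34, adjusted p = 0.259) that missed the unadjusted threshold. For Peg3 the log2 difference was 0.39 without replicate 2 (adjusted p = 0.413) and 1.64 without replicate 1 (adjusted p = 0.0357).

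Mest was at 272 and 190 against 162 and 199 TPM (log2 difference -0.34), with -0.080 and -0.60 without +/+ replicates 1 and 2. Impact was at 65.34 and 71.62 against 55.04 and 68.69 TPM (log2 difference -0.15). Nap1l5, a retrogene of the nucleosome assembly protein family, was at 117.94 and 77.92 against 72.21 and 144 TPM (log2 difference 0.090). These 3 were the most abundant paternally expressed genes in +/+ NSCs, and all of them overlapped between genotypes, with adjusted p-values of 0.483, 0.710 and 0.909.

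Sgce, a sarcoglycan, was at 55.48 and 57.55 against 62.06 and 118 TPM (log2 difference 0.59, adjusted p = 0.350), without overlap and with Chd5-/- replicate 2 well above replicate 1. Its log2 difference was 1.05 without Chd5-/- replicate 1 (adjusted p = 0.0408) and 0.13 without replicate 2 (adjusted p = 0.685). Peg13, a noncoding RNA, was at 7.34 and 3.53 against 6.46 and 11.96 TPM (log2 difference 0.68, adjusted p = 0.403), and overlapped. Its value ranged from 0.24 to 1.12 with 1 sample left out and was 0.057 after quantile normalization.

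Several of these genes varied widely between the Chd5-/- samples, which were further apart than the genotype means for 13 of the 25 rows, against 47.0% of all rows, and this held for 11 of the 16 paternally and 2 of the 9 maternally expressed rows. The median absolute difference between the Chd5-/- samples was 0.80 on the log2 scale for the imprinted rows and 0.40 for all rows, and between the +/+ samples it was 0.31 and 0.25. Chd5-/- replicate 1 was at least 2-fold above replicate 2 in TPM + 1 for 6 imprinted rows, against 8.87% of all rows, and replicate 2 was so for 3, against 8.00%. These values involve 1 sample on each side and carry no test.

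The 6 genes higher in replicate 1 were H19, Cdkn1c and Rasgrf1, given above, and Airn, Plagl1 and Peg10. Airn, the noncoding RNA that silences paternal Igf2r, was at 4.57 and 2.30 TPM in +/+ and at 15.31 and 3.91 TPM in Chd5-/- NSCs. Plagl1, a zinc finger transcription factor also called Zac1, was at 4.08 and 4.64 against 13.87 and 4.11 TPM. Peg10, derived from a retrotransposon, was at 54.69 and 35.72 against 111 and 36.01 TPM. In each of these 3, Chd5-/- replicate 2 was within the +/+ range, and without replicate 1 the log2 differences were 0.20, -0.067 and -0.29. Without replicate 2 they were 1.93, 1.47 and 1.31.

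The 3 genes higher in replicate 2 were Nnat, Peg3 and Ndn. Nnat (chromosome 2, 157560078 to 157562522, plus strand) encodes neuronatin, a small membrane proteolipid of developing neurons. It was at 41.59 and 19.52 TPM in +/+ NSCs, against 13.15 and 419 TPM in Chd5-/- NSCs, so that 1 Chd5-/- sample was the lowest of the 4 and the other the highest by far. The log2 difference of 1.38 had a standard error of 1.56 (adjusted p = 0.608), and was -1.06 without replicate 2 (adjusted p = 0.184) and 3.83 without replicate 1 (adjusted p = 0.0250). Blcap, in whose intron Nnat lies, was at 57.46 and 49.86 against 49.10 and 65.11 TPM.

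**Figure D3:**
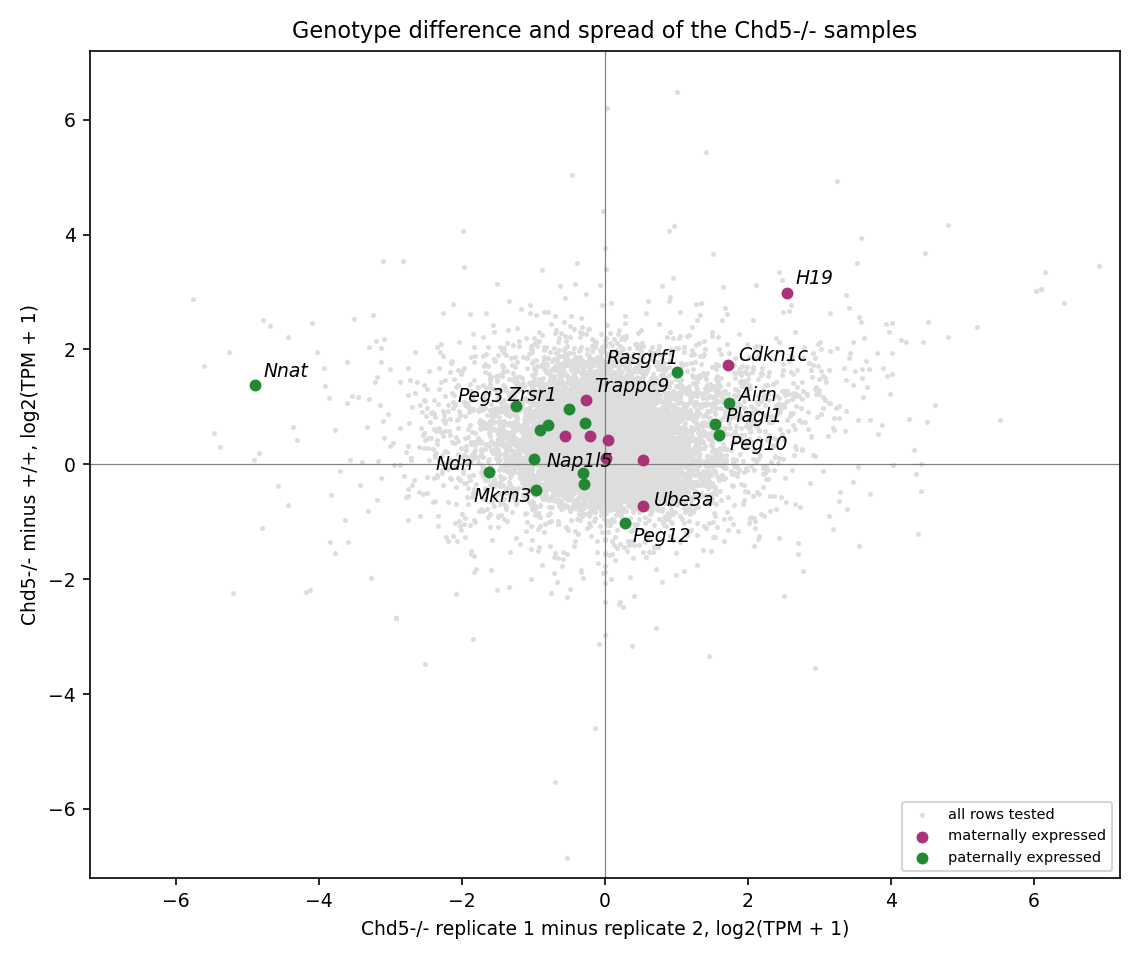
For every row tested, the difference between Chd5-/- replicates 1 and 2 in log2(TPM + 1) on the horizontal axis and the difference between genotypes on the vertical axis. Imprinted genes are coloured by expressed allele and all rows are grey. Nnat lies far to the left, at -4.89, and H19 to the upper right, at 2.55 and 2.99.

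Markers of other cells differed between the same samples. The NSC genes Sox2, Vim, Nes and Fabp7 were at 60.88 TPM or more in every sample, whereas the summed TPM of 11 NSC markers was 9837 and 8157 in +/+, 3979 in Chd5-/- replicate 1 and 6922 in replicate 2. Most of that sum was Fabp7 (5892, 4316, 1939 and 3822 TPM) and Slc1a3 (1871, 1620, 442 and 1006 TPM). Prom1 (0.99, 4.15, 45.27 and 3.20 TPM) and Nes (74.73, 83.22, 94.66 and 60.88 TPM) were highest in Chd5-/- replicate 1. Egfr (139, 129, 147 and 324 TPM) and Pax6 (27.69, 30.04, 12.98 and 54.41 TPM) were highest in replicate 2. So were Hes5 (8.52, 3.13, 1.16 and 43.69 TPM), Notch1 (10.32, 10.12, 9.33 and 24.33 TPM) and Msi1 (19.61, 16.97, 18.32 and 33.61 TPM). Sox2 and Vim were highest in +/+ replicate 2. Replicate 1, where H19, Igf2, Cdkn1c, Airn and Plagl1 were highest, also held Folr1 at 18.48 TPM, Col3a1 at 7.41 TPM and Dcn at 4.17 TPM, each at 0.24 TPM or less in every other sample. Dcn is also on the list of other imprinted genes used below. The summed TPM of 8 mesenchymal and meningeal markers was 20.22 and 17.83 in +/+ and 41.74 and 10.90 in Chd5-/- NSCs, most of it Foxc1 in the +/+ samples, while Col1a1, Col1a2, Lum and Pdgfrb were at 0.37 TPM or less throughout. Twist1, of the same list, was at 0.26 and 0 against 2.92 and 5.16 TPM and thus higher in replicate 2. That of 5 choroid plexus and ependymal markers, 4 of them analysed, was 1.58 and 1.76 against 25.02 and 5.76, most of it Folr1 in Chd5-/- replicate 1. In the other samples most of it was Foxj1, which was at 1.52 and 1.71 against 6.50 and 5.11 TPM and thus similar in both Chd5-/- samples. Kl and Kcnj13 were at 0.25 TPM or less throughout.

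Replicate 2, where Nnat, Peg3 and Ndn were highest, also had the highest summed TPM of 5 astrocyte markers (372 and 454 against 133 and 634), of the 6 of 7 oligodendrocyte lineage markers analysed (567 and 628 against 500 and 917) and of 8 neuronal markers (555 and 546 against 520 and 919, most of it Map2). Single markers differed from the sums: Aldh1l1 and S100b were highest in +/+ replicate 2, Olig2, Gap43 and Stmn2 in Chd5-/- replicate 1, and Dcx in +/+ replicate 1. Rbfox3 was at 0 TPM in both Chd5-/- samples. The 3 leukocyte and 2 endothelial markers analysed summed to 0.75 TPM or less in every sample. In bulk RNA, fewer cells of a type and less RNA per cell cannot be told apart, and the part of these cells in the imprinted genes' values was not tested.

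Ratios of neighbouring genes were taken within each sample as TPM + 1, so that they depend little on the scaling between samples where both genes are well above 1 TPM, but on the added constant where a partner is near or under it. With 2 samples against 2, an exact permutation test cannot give a p-value under 0.33, so these ratios are given without one. The log2 ratio of H19 to Igf2 (both as TPM + 1) was 0.63 and 0.96 in +/+ and 4.10 and 2.38 in Chd5-/- NSCs. That of Cdkn1c to Kcnq1ot1 was -0.32 and -0.25 against 2.33 and 0.44, a difference of 1.67 that became 3.21 with 0.1 and 0.65 with 5 in place of the added 1. Neither ratio overlapped between genotypes, and the paternally expressed partner was under 1 TPM in every sample, except Igf2 at 1.42 TPM in Chd5-/- replicate 1.

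Igf2r over Airn, which overlap by 28354 bases on opposite strands, was at 1.72 and 2.84 in +/+ and 0.70 and 1.90 in Chd5-/- NSCs, and overlapped between genotypes. Copg2 over Mest, with 912 bases in common on opposite strands, was at -2.10 and -1.48 against -1.19 and -1.49. Libraries were stranded, but whether counting used the strand is not given in the sources used here, so these values are uncertain where the genes overlap.

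Sgce and Peg10 are both paternally expressed and read in opposite directions from starts 98 bases apart. Their log2 ratio was 0.020 and 0.67 in the +/+ samples, -0.83 in Chd5-/- replicate 1 and 1.69 in replicate 2, so that these neighbours differed in opposite directions between the Chd5-/- samples. Usp29 over Peg3, the other such pair, was at -3.05 and -2.93 against -2.80 and -3.77. Ppp1r9a over Peg10 followed the same order as Sgce over Peg10, at -1.01 and -0.61 against -1.91 and 0.25.

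Ratios of retrogenes or intronic genes to their hosts also varied. Nnat over Blcap was at -0.46 and -1.31 against -1.82 and 2.67, Nap1l5 over Herc3 at 3.11 and 1.84 against 3.10 and 3.47, and Zrsr1 over Commd1 at -3.53 and -3.47 against -3.40 and -2.53. For Zrsr1 the genotypes did not overlap, but Chd5-/- replicate 1 differed from the +/+ samples by little. Trappc9 over Peg13 was at 0.043 and 0.28 against 0.86 and 0.33.

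**Figure D4:**
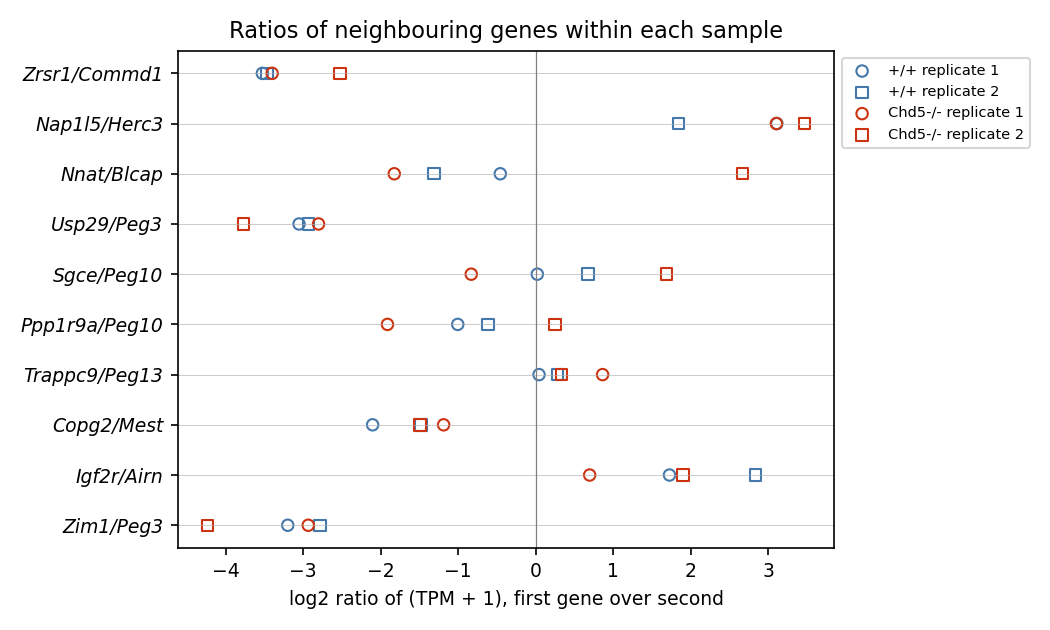
Log2 ratio of (TPM + 1) of neighbouring or host genes within each sample, for the pairs in which both rows were tested. Circles are replicate 1 and squares replicate 2, blue is +/+ and red Chd5-/-. The red symbols of Nnat/Blcap and Sgce/Peg10 lie on either side of both blue symbols.

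Other imprinted genes and other genes of the imprinted clusters were read from a list of 55, of which 41 were found and 24 tested. Their median log2 difference was 0.51, against 0.34 for all rows. At an unadjusted p under 0.05, 6 were higher and 0 lower, where 21.9% and 2.27% of all rows were. At the adjusted threshold, 0 passed. Dcn, at 0 TPM in both +/+ samples, met the minimum only through its Chd5-/- values. The median and counts of this list are thus a description. Ampd3, an adenosine monophosphate deaminase, was at 4.68 and 4.83 against 28.53 and 23.17 TPM, a log2 difference of 2.21 (SE 0.27, adjusted p = 0.120). Tssc4, in the Kcnq1 domain, was at 2.82 and 2.36 against 16.98 and 11.48 TPM (log2 difference 2.06, adjusted p = 0.120). Osbpl5, a lipid transfer protein of that domain, was at 5.45 and 5.31 against 19.37 and 30.88 TPM (log2 difference 2.00, adjusted p = 0.120). In these 3 the Chd5-/- samples were close to each other relative to the distance from +/+, unlike in Cdkn1c. None of 72 names of small RNAs of these clusters was matched.

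Of 31 writers and keepers of imprints, 27 were tested, with a median log2 difference of 0.29, under the 0.34 of all rows, and 5 higher and 0 lower at an unadjusted p under 0.05 (21.9% and 2.27% of all rows), and 0 at the adjusted threshold. Trim28, the corepressor that Zfp57 brings to imprinted regions, was at 27.13 and 16.87 against 55.40 and 62.49 TPM (log2 difference 1.42, SE 0.30, adjusted p = 0.120). Ehmt2, a histone H3K9 methyltransferase, was at 11.06 and 6.75 against 24.96 and 30.37 TPM (log2 difference 1.56, adjusted p = 0.120), and Mbd3, a NuRD subunit, at 9.22 and 5.96 against 30.07 and 23.65 TPM (log2 difference 1.71, adjusted p = 0.120). The median turned to -0.075 after median-of-ratios scaling. Zfp57 itself was at 3.54 and 0.81 against 3.68 and 3.31 TPM, and Dnmt1, the maintenance DNA methyltransferase, at 20.93 and 15.66 against 28.73 and 31.94 TPM (log2 difference 0.71, adjusted p = 0.187).

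Of 21 growth-control partners of imprinted genes, 19 were tested, with a median log2 difference of 0.53 (0.34 for all rows), 5 higher and 0 lower at an unadjusted p under 0.05 (21.9% and 2.27% of all rows), and 0 at the adjusted threshold. The insulin-like growth factor binding protein Igfbp5 was at 83.99 and 132 TPM in +/+ and at 1907 and 442 TPM in Chd5-/- NSCs, a log2 difference of 3.11 (SE 0.71, adjusted p = 0.122). Igfbp2 was at 66.71 and 81.08 against 261 and 159 TPM (log2 difference 1.46, adjusted p = 0.120), and the insulin receptor substrate Irs2 at 1.2 and 0.79 against 4.66 and 4.75 TPM (log2 difference 1.52, adjusted p = 0.120). Irs2 averaged 0.995 TPM in +/+ NSCs and met the minimum only through its Chd5-/- values. Its p-value and its part in the counts of this list are thus a description. Igfbp5 and Igfbp2 were highest in the Chd5-/- sample in which H19 and Cdkn1c were highest. With the GC and length trends removed the median of the list was -0.11.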

How the data were processed

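RNA-seq of 2 +/+ and 2 Chd5-/- NSC samples was used. The authors deposited TPM values in 1 table, with 1 column per sample and no pooling; the submitters' processing notes name Bowtie2 2.2.3, RSEM 1.2.20 and the build mm10, and the gene annotation is not given in the sources used here. Columns summed to 1000015 to 1000031 TPM, and depth cannot be read from them. The 20 most abundant rows held 32.4% and 35.6% of the +/+ and 21.6% and 22.8% of the Chd5-/- TPM, which shifts all others. Values were used as deposited. Rows averaging 1 TPM or more were tested on log2(TPM + 1) with limma 3.58.1 in R 4.3.3 (lmFit, eBayes with trend, two-sided), with Benjamini-Hochberg adjustment over all 12576 rows. The p-values measure the spread between these cultures. The fit was tested on simulated data. No count test was used, since TPM values are not counts.

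Members and gene lists were chosen with earlier results of these data known. Members were all named, and of other lists the 3 genes with the smallest p and any needed for a ratio. Genes outside that rule were named after their values were seen. The fit was repeated with pseudocounts of 0.1 and 5, without a minimum and at 10 TPM, under other scalings (median-of-ratios, quantile, and without the 20 most abundant rows), with loess removal (span 0.5) of trends with GC content and length (GENCODE M21, known for 93.0% of rows), with identical rows kept once, with a replicate block, with eBayes without trend or robust, and leaving out each sample. Positions are from GENCODE M21 (GRCm38), the build that mm10 names. Python 3.11.15 was used with pandas 2.3.3, and matplotlib 3.10.9 drew the figures.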

Additional observations from a re-analysis of the deposited data

How the results depend on the processing

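The 25 imprinted rows were refitted under each alternative. In the alternatives other than leaving out a sample, 278 values kept their direction and side of the adjusted threshold and 12 changed direction. These were Gnas (-0.42) and Igf2r (-0.42) with GC and length trends removed, Igf2r (-0.28), Copg2 (-0.26) and Nap1l5 (-0.28) after median-of-ratios scaling, Igf2r (-0.30), Copg2 (-0.0098), Nap1l5 (-0.025) and Zim1 (-0.20) after quantile normalization, and Igf2r (-0.15), Copg2 (-0.12) and Nap1l5 (-0.14) after rescaling without the 20 most abundant rows. With 1 sample left out, the log2 difference went from -0.19 to 0.34 for Igf2r, from -0.29 to 1.31 for Peg10, from -0.93 to 0.039 for Mkrn3, from -0.95 to 0.67 for Ndn, from -0.31 to 0.0058 for Impact, from -0.40 to 0.59 for Nap1l5, from -1.06 to 3.83 for Nnat and from -0.067 to 1.47 for Plagl1. Without Chd5-/- replicate 1 or 2, where the lone sample is assumed to vary like the +/+ samples, 5 imprinted rows passed the adjusted threshold without replicate 1 (H19, Peg3, Sgce, Nnat and Ube3a), where 9.92% of all rows did, and 3 without replicate 2 (H19, and Cdkn1c and Rasgrf1, which met the minimum only through Chd5-/- values), where 8.64% did. Over all alternatives the adjusted p of H19 went from 0.0084 to 0.759.

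The number of all rows past the adjusted threshold, 7 as reported, was 4 with a pseudocount of 0.1, 0 without a minimum, 1 under quantile scaling and 3 with trends removed, and ranged from 0 to 1247 with 1 sample left out (1247 without Chd5-/- replicate 1 and 1086 without replicate 2). A replicate block left 0, and with the numbers crossed, an alternative chosen after the data were seen because same-numbered samples deviated in opposite directions (correlation -0.152), it was 5. The numbers are not stated to pair the samples. Imprinted rows higher at an unadjusted p under 0.05, 5 as reported, were 1 at 10 TPM, 3 under median-of-ratios and 0 under quantile scaling, 1 with trends removed and 1 to 11 with a sample left out. Those lower, 2 as reported, were 1 without a minimum, 0 at 10 TPM, and 1 with trends removed, with the replicate block, or with eBayes without trend, and 0 to 2 with a sample left out.

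The median of maternally expressed rows was 0.43 with a pseudocount of 5, 0.25 without a minimum and 0.30 at 10 TPM. It was 0.13, 0.12 and 0.26 under the 3 scalings named above and 0.27 with trends removed. Without the genes listed as tissue-dependent it was 1.11, and with a sample left out 0.38 to 0.59. For paternally expressed rows it was 0.090 at 10 TPM, 0.29 and 0.077 under the median-of-ratios and quantile scalings, 0.32 with trends removed, and 0.21 to 0.72 with a sample left out. For writers and keepers of imprints it was -0.075, -0.13 and 0.061 under the 3 scalings, 0.0075 with trends removed, and 0.066 to 0.50 with a sample left out. For other imprinted genes and genes of the clusters it was 0.40 with a pseudocount of 5, 0.19 without a minimum and 0.41 at 10 TPM. It was 0.14, 0.21 and 0.28 under the scalings, 0.19 with trends removed, and 0.33 to 0.56 with a sample left out. For growth-control partners it was 0.41, 0.42, 0.26, 0.18, 0.14, 0.31 and -0.11 under the same 7 alternatives, and 0.32 to 0.54 with a sample left out. The cause of these shifts was not tested.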
